A study of Rattus norvegicus with 20 samples.

Results

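The sodium-potassium ATPase moves sodium out of cells and potassium in, and 7 genes of its accessory proteins were followed: the beta subunit genes Atp1b1, Atp1b2 and Atp1b3 and the FXYD genes Fxyd1, Fxyd2, Fxyd4 and Fxyd5. They were taken by gene name from a table of 30560 genes. The libraries are messenger RNA from kidney cortex and left ventricle of 10 male hypertensive rats, 1 library per organ and animal. All rats carried a telemeter from 8 weeks of age and ate a 4% NaCl diet for 3 weeks. The labels give the genotype as WT and do not name the strain, and both organs were taken as pieces of whole tissue. Minipumps gave 5 rats (RB035 to RB039) Maresin 1 (MaR1), a lipid mediator derived from an omega-3 fatty acid, in doses of at most 1.3 µg/kg/day. The other 5 rats (RB030 to RB034, labelled control) had pumps with vehicle, so the 4 groups are kidney MaR1, kidney vehicle, heart MaR1 and heart vehicle, with 5 animals in each.

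The pump works as a catalytic alpha subunit bound to a beta subunit, a glycoprotein that the alpha subunit needs to leave the endoplasmic reticulum and reach the plasma membrane. Small single-span proteins of the FXYD family attach to this pair and tune its affinity for sodium or potassium and its turnover. In the nephron the pump sits in the basolateral membrane and drives the reabsorption of sodium, and in heart muscle it keeps intracellular sodium low and so bears on calcium removal and contraction.

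Values are FPKM, fragments per kilobase of gene length scaled by the authors to library size, so levels of different genes can be compared. Between 19383232 and 30342034 fragments per library were assigned to genes. Markers matched the organ labels: 7 proximal tubule genes summed to 3062 to 5256 FPKM in kidneys and 1.57 to 16.2 FPKM in hearts, and 7 ventricular cardiomyocyte genes to 0.450 to 1.44 FPKM in kidneys and 12045 to 19966 FPKM in hearts. Some libraries stood apart. The urothelial gene Upk1a exceeded 1 FPKM in the kidneys of RB036, RB038, RB039 and RB034, and the fat gene Adipoq reached 120 FPKM in the kidney of RB039, against 2.77 to 13.2 FPKM in the other kidneys. The atrial myosin gene Myl7 was above 100 FPKM in the hearts of RB035, RB038, RB031, RB033 and RB034 and at most 1.65 FPKM in the other hearts.

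Across the organs, 3 members were higher in kidney (Atp1b1, Fxyd2, Fxyd4) and 3 were lower in kidney than in heart (Fxyd1, Atp1b2, Fxyd5), while Atp1b3 did not pass the test. That makes 6 of 7 members past an adjusted p of 0.05 in limma. Fxyd4 passed the filter on low values through the kidney alone, where it is high, so it had to differ and adds nothing to that count. Such a difference was common here: 84.6% of 12984 genes passed, 43.6% higher and 41.0% lower in kidney. The same 6 members had no overlap between the 10 kidneys and the 10 hearts, which held for 56.9% of all genes tested. Differences below are of log2(FPKM + 0.5), kidney minus heart, ± SE, over 20 libraries, and levels of an organ are means ± SD over its 10 libraries. The sizes depend on scaling. As TPM, where every library has the same sum, the median of all genes moved to 0.63, and the members' differences were 3.98 for Atp1b1, 6.03 for Fxyd2, 4.79 for Fxyd4, -5.40 for Fxyd1, -1.30 for Atp1b2 and -0.81 for Fxyd5, each still past the test. In bulk tissue, fewer cells of a type and less RNA per cell cannot be told apart.

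Of the beta subunits, Atp1b1 (ENSRNOG00000002934), the widespread isoform and the main one of kidney tubules, stood at chromosome 13, positions 76786578 to 76807459. It was among the most abundant transcripts of the kidney, at rank 30 of 30560, and at rank 509 in the heart. Its level was 1090.3 ± 84.0 FPKM in kidney and 107 ± 11.99 FPKM in heart, 10.2 times higher in kidney (log2 difference 3.34 ± 0.06, adjusted p = 1.66e-20). Kidneys ran from 936 to 1188 FPKM and hearts from 89.1 to 128 FPKM. The Nme7 gene overlaps it on the opposite strand, and whether the libraries keep strand is not settled here, so some fragments could belong to either gene. Nme7 itself was at 6.05 to 16.7 FPKM in kidneys and 3.09 to 4.68 FPKM in hearts.

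Atp1b2 (ENSRNOG00000011227, chromosome 10, 54318701 to 54324933), an isoform best known from glia and neurons as an adhesion molecule, had the opposite distribution. It averaged 2.44 ± 0.449 FPKM in kidney and 9.67 ± 0.860 FPKM in heart, 3.97 times higher in heart (-1.80 ± 0.08, adjusted p = 4.97e-14). Atp1b3 (ENSRNOG00000011501, chromosome 8, 96910309 to 96941598), a broadly expressed isoform, was at 56.1 ± 4.65 FPKM in kidney and 52.2 ± 6.91 FPKM in heart. Its difference of 0.11 ± 0.07 did not pass (95% interval -0.03 to 0.25, adjusted p = 0.137), and 6 of the 10 animals had more of it in the kidney. This rests on the scaling: as TPM its difference was 0.74 (adjusted p = 5.65e-06), beside the shift of 0.63 over all genes. As TPM the calls over all genes were 9429 higher and 3079 lower, against 5657 higher and 5326 lower on the authors' scale. With library sizes set within each organ and totals made equal, the difference was 0.75 (adjusted p = 1.88e-09), with a median of all genes of 0.62 and 8860 higher and 2824 lower calls. Without animal RB035 it was 0.15 (adjusted p = 0.0336) on the authors' scale.

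Among the FXYD genes, Fxyd2 (ENSRNOG00000016469, chromosome 8, 45712903 to 45720203), the gamma subunit of renal pumps, ranked 45 in the kidney by mean level. It averaged 737 ± 89.7 FPKM in kidney and 17.9 ± 5.58 FPKM in heart, 41.2 times higher in kidney (5.38 ± 0.14, adjusted p = 2.06e-18). Heart Fxyd2 stood at 2.43% of its kidney level. Summed markers of kidney tubule and duct cells in the hearts stood lower. They were at 0.161% of the kidney level for proximal tubule, 0.157% for thick ascending limb and distal convoluted tubule, and 0.344% for principal cells. By treatment, the proximal tubule share was 0.244% with MaR1 and 0.0875% with vehicle, and that of Fxyd2 2.76% and 2.09%. The source of the Fxyd2 RNA in the hearts was not tested. Fxyd1 (ENSRNOG00000021079, chromosome 1, 86287165 to 86291278) encodes phospholemman, the FXYD protein of heart muscle, which inhibits the pump until it is phosphorylated. It was at 4.76 ± 2.43 FPKM in kidney and 304 ± 30.4 FPKM in heart, 64.0 times higher in heart (-5.95 ± 0.16, adjusted p = 3.81e-18).

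Fxyd4 (ENSRNOG00000014578, chromosome 4, 151109779 to 151113637), the corticosteroid-induced factor CHIF known from the collecting duct, was at 7.62 ± 3.46 FPKM in kidney and 0.0909 ± 0.0787 FPKM in heart. The 10 hearts held 27 fragments of it in all and the 10 kidneys 2887. Its mean was 83.9 times higher in kidney (3.69 ± 0.16, adjusted p = 1.11e-14), and the log2 difference depends on the pseudocount, with 5.34 at 0.1 and 6.51 when recovered fragments were modelled with voom. Fxyd5 (ENSRNOG00000021062, chromosome 1, 86267406 to 86277519), dysadherin, which is known to affect cell adhesion, was at 6.23 ± 1.64 FPKM in kidney and 17.5 ± 6.02 FPKM in heart (-1.39 ± 0.17, adjusted p = 1.76e-07). With equal totals this difference was -0.78, and it passed there too.

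**Figure D1:**
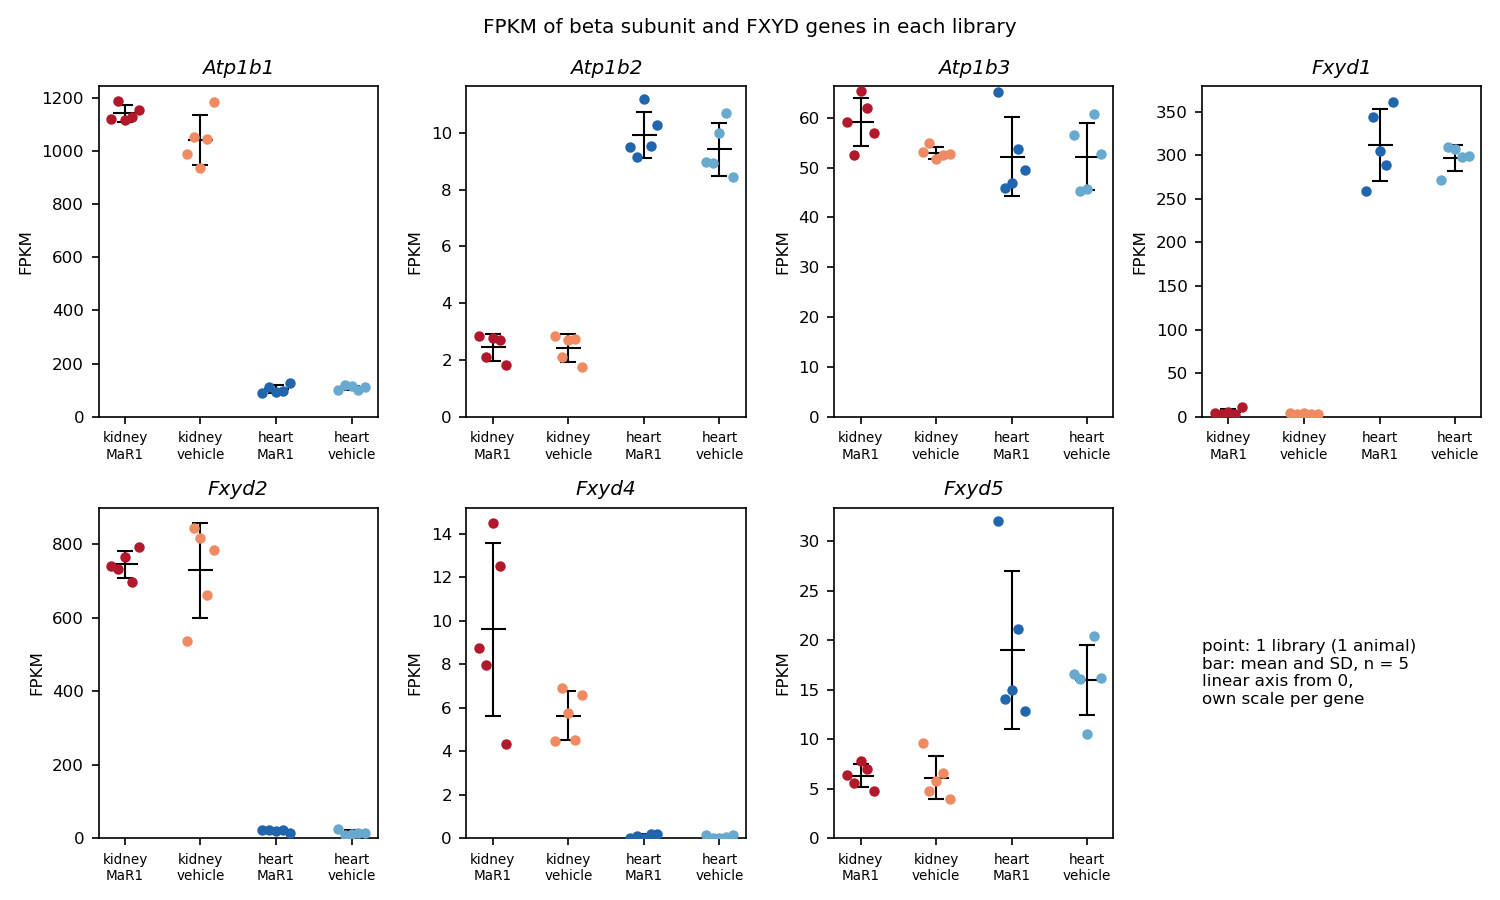
Level of each of the 7 genes in FPKM (linear axis from 0, with its own scale per gene) in the 4 groups, with a point for each library and bars for the mean and SD of 5 animals. Atp1b1, Fxyd2 and Fxyd4 lie higher in kidney, Fxyd1, Atp1b2 and Fxyd5 lie higher in heart, and Atp1b3 overlaps between the organs.

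Among the members, Atp1b1 made up most of the beta subunit RNA in both organs, and the leading FXYD member was Fxyd2 in kidney and Fxyd1 in heart. Atp1b1 made up 94.9% of the beta subunit FPKM in MaR1 kidneys and 94.9% in vehicle kidneys, and 62.5 ± 5.55% in MaR1 hearts and 64.0 ± 4.18% in vehicle hearts (SD, n = 5 each). Atp1b3 supplied 31.5% in MaR1 hearts and 30.5% in vehicle hearts, and 4.93% and 4.86% in MaR1 and vehicle kidneys. Among the 4 FXYD members, Fxyd2 made up 97.2% in MaR1 kidneys and 97.8% in vehicle kidneys, and Fxyd1 88.5 ± 3.86% in MaR1 hearts and 90.4 ± 2.65% in vehicle hearts. The beta subunits summed to 1202 ± 25.9 FPKM in MaR1 kidneys and 1096 ± 93.3 FPKM in vehicle kidneys, and to 167 ± 12.9 FPKM in MaR1 hearts and 171 ± 2.93 FPKM in vehicle hearts. Fxyd6, an FXYD gene outside these 4 at 32.1 ± 9.10 FPKM in kidney and 21.1 ± 4.72 FPKM in heart, is not counted in the shares. The shares are descriptions of RNA, with no test, and are not shares of protein.

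**Figure D2:**
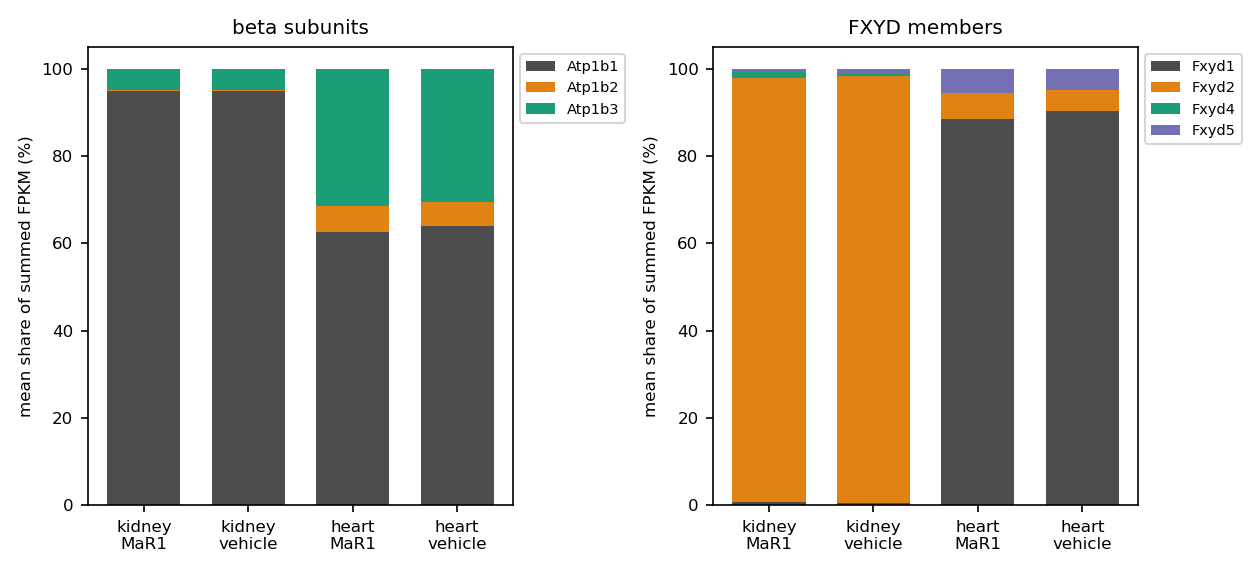
Mean share, in percent of summed FPKM, of each beta subunit gene (left) and each FXYD member (right) in the 4 groups of 5 libraries. Atp1b1 fills 94.9% of the beta subunit bar in both kidney groups, and Fxyd2 (kidney) and Fxyd1 (heart) fill most of the FXYD bars.

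RefSeq promoter windows (assembly GRCr8) are shown for 4 of the 5 members found in the promoter table, which holds no entry for Atp1b1 and Fxyd2. Shown are Fxyd1 and Atp1b2, higher in heart, Atp1b3, which did not pass between organs, and Fxyd4, higher in kidney at a low level. Each has 300 bases, 250 before the annotated start and 50 after it. Capitals mark matches, on either strand and without overlaps, to 4 motifs. These were TATAAA, which many core promoters hold near the start, and GGGCGG, called the GC box from here on. The other motifs were AGAACA, which forms an arm of steroid receptor elements, and CCAAT.
Fxyd1, chr1:95418531-95418830, minus strand: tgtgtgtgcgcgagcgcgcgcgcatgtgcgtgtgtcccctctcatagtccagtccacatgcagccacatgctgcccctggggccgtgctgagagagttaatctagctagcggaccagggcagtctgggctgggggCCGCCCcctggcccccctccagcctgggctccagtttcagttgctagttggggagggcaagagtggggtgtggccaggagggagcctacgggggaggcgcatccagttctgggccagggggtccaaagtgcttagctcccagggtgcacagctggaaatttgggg
Atp1b2, chr10:54823659-54823958, minus strand: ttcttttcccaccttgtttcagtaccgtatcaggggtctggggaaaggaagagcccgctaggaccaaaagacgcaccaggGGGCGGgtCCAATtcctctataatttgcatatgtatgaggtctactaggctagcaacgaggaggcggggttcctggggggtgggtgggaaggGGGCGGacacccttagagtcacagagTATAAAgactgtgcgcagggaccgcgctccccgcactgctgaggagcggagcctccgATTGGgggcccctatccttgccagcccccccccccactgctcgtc
Atp1b3, chr8:105821102-105821401, minus strand: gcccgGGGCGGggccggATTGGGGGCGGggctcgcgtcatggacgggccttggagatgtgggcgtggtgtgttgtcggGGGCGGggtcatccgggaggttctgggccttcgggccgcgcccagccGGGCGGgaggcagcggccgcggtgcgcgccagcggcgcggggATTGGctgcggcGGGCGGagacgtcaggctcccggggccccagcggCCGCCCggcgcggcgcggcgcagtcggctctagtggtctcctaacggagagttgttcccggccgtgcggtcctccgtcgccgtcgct
Fxyd4, chr4:152785996-152786295, minus strand: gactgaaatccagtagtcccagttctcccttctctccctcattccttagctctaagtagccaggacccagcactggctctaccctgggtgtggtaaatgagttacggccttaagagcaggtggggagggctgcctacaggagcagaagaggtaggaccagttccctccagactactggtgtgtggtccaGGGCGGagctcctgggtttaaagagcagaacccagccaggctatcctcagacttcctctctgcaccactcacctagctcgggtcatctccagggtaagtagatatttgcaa
The windows differ most in CG content: Atp1b3 holds 46 CG dinucleotides and Fxyd4 holds 3, against a median of 7 over 33469 rat promoters. The Atp1b3 window has 6 GC boxes and 2 CCAAT matches and no TATAAA, and 77.7% of its bases are G or C. Atp1b2 has TATAAA beginning 52 bases before the start, 2 GC boxes and 2 CCAAT matches, with 14 CG dinucleotides. Fxyd1 and Fxyd4 have 1 GC box each, beginning 115 and 61 bases before the start, and none of the other motifs. Over all promoters of the table, GGGCGG was found in 33.1%, CCAAT in 37.5%, AGAACA in 20.7% and TATAAA in 14.2%. Such matches are letters in a window and not sites shown to be used.

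In the kidney, the question was whether MaR1 treatment changed these genes under high salt. None of the 7 members passed the test, nor did any of 12446 genes in limma (0%), with 840 genes (6.75%) at an unadjusted p under 0.05, and modelling recovered fragments with voom also called 0 (842 unadjusted). Members with an unadjusted p under 0.05 were Fxyd4 and Atp1b3. In all 7 members the MaR1 and vehicle kidneys overlapped, as they did in all but 1.23% of genes tested.

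Fxyd4 was at 8.73, 7.97, 14.5, 12.5 and 4.33 FPKM in MaR1 kidneys, against 4.45, 6.89, 5.74, 4.53 and 6.59 FPKM in vehicle kidneys. Of the MaR1 kidneys, 4 were above every vehicle kidney, and the fifth, RB039, was the lowest of all 10. The means were 9.60 ± 3.99 and 5.64 ± 1.13 FPKM for MaR1 and vehicle, a log2 difference of 0.63 ± 0.27 (95% interval 0.04 to 1.23, adjusted p = 0.721). Leaving out single animals gave 0.47 (without RB037) to 0.88 (without RB039, adjusted p = 0.0965). Without the 4 kidneys with Upk1a above 1 FPKM, a choice made after seeing the data, it was 1.01 (adjusted p = 0.235). That choice left RB035 and RB037 as the only MaR1 kidneys. It dropped RB039, the lowest for Fxyd4, and kept RB037, the highest.

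Atp1b3 was at 59.1, 52.6, 65.3, 61.9 and 57.0 FPKM in MaR1 kidneys, against 53.1, 54.9, 51.7, 52.5 and 52.7 FPKM in vehicle kidneys. The vehicle kidneys lay within a narrow range, and only the MaR1 kidney of RB036 fell inside it. The log2 difference was 0.15 ± 0.07 (95% interval 0.005 to 0.30, adjusted p = 0.728). Atp1b1 was at 1119, 1188, 1116, 1125 and 1153 FPKM in MaR1 kidneys, against 986, 1050, 936, 1046 and 1185 FPKM in vehicle kidneys. All MaR1 kidneys were above 4 of the vehicle kidneys, and RB034 with vehicle lay among them, for a difference of 0.14 ± 0.09 (95% interval -0.07 to 0.34, adjusted p = 0.820).

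The other members showed smaller or less even differences. Fxyd2 averaged 746 ± 36.5 FPKM in MaR1 kidneys and 729 ± 129 FPKM in vehicle kidneys (0.05 ± 0.13, adjusted p = 0.976). Fxyd1, which was low in this organ, averaged 5.46 ± 3.41 and 4.05 ± 0.666 FPKM with MaR1 and vehicle. The higher mean came from RB039 at 11.3 FPKM: the difference was 0.25 ± 0.28 (adjusted p = 0.905), and -0.04 without RB039. That kidney also had the highest adipocyte, Schwann cell, smooth muscle, urothelial and inner medulla marker sums of the 10, at 383, 22.3, 126, 90.1 and 32.3 FPKM, and the part of those cells in its Fxyd1 level was not tested. Atp1b2 averaged 2.45 ± 0.469 FPKM in MaR1 kidneys and 2.42 ± 0.483 FPKM in vehicle kidneys, and Fxyd5 6.32 ± 1.16 and 6.14 ± 2.16 FPKM with MaR1 and vehicle (adjusted p = 0.995 and 0.977).

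No marker gene passed the adjusted test between these kidneys. The summed levels of 2 marker lists did not overlap. No share over all genes was computed for such sums, so this count is a description. Sums follow their most abundant genes. In the inner medulla list that was Akr1b1, at 10.5 FPKM over the 10 kidneys, whose own levels overlapped. Inner medulla and thin limb markers summed to 15.7 to 32.3 FPKM in MaR1 kidneys, against 9.36 to 12.2 FPKM in vehicle kidneys, and adipocyte markers to 27.7 to 383 FPKM in MaR1 kidneys, against 9.82 to 23.4 FPKM in vehicle kidneys. The sums of the other lists given here overlapped. Thick ascending limb and distal tubule markers summed to 796 to 1809 FPKM with MaR1, against 614 to 1216 FPKM with vehicle. Most of this sum was Umod, which averaged 1120 FPKM with MaR1 and 723 FPKM with vehicle. Of the 5 genes, 4 had higher mean log2 values with MaR1, and the distal convoluted tubule gene Slc12a3 had lower ones (-0.57 ± 0.26). Proximal tubule markers summed to 3132 to 4779 FPKM with MaR1, against 3062 to 5256 FPKM with vehicle. Their mean log2 values were lower in MaR1 kidneys for 7 of 7 genes. Podocyte markers summed to 42.6 to 71.4 FPKM with MaR1, against 67.1 to 101 FPKM with vehicle, and urothelial markers to 0.858 to 90.1 FPKM with MaR1, against 0.379 to 4.69 FPKM with vehicle. Principal cell markers, of which Avpr2 was listed at 0 in every library, summed to 324 to 433 FPKM with MaR1, against 269 to 342 FPKM with vehicle. The part of these markers in the differences of Fxyd4, Atp1b3 and Atp1b1 was not tested.

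In the left ventricle, the same question gave 0 of 12237 genes past the threshold (0%), 563 (4.60%) at an unadjusted p under 0.05 and 0.842% with groups that did not overlap. Voom also called 0, with 550 unadjusted. Of the 6 members that passed the filter, none had an unadjusted p under 0.05, all overlapped between the groups, and the adjusted p was 1.00 for each. Fxyd1, the main FXYD gene of this organ, was at 259, 344, 305, 289 and 361 FPKM in MaR1 hearts, against 271, 309, 307, 298 and 299 FPKM in vehicle hearts (0.06 ± 0.10). The lowest and the highest value were both in MaR1 hearts. Atp1b1 averaged 105 ± 15.7 FPKM in MaR1 hearts and 110 ± 7.66 FPKM in vehicle hearts (-0.08 ± 0.10), and Atp1b2 9.93 ± 0.808 and 9.41 ± 0.920 FPKM with MaR1 and vehicle (0.07 ± 0.08). Atp1b3 averaged 52.2 ± 7.84 and 52.2 ± 6.79 FPKM with MaR1 and vehicle.

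Fxyd2 had the largest difference of the 6 in heart. It was at 21.3, 23.5, 19.6, 23.9 and 14.4 FPKM in MaR1 hearts, against 25.4, 9.32, 11.96, 15.8 and 13.8 FPKM in vehicle hearts. Apart from RB039 with MaR1 and RB030 with vehicle, the MaR1 hearts lay above the vehicle hearts. The difference was 0.48 ± 0.23 (95% interval -0.04 to 0.99). Without RB030 it was 0.68 (adjusted p = 0.895), and without the 5 hearts with Myl7 above 100 FPKM, chosen after seeing the data, 0.11. The latter choice left RB030 and RB032 as the only vehicle hearts, beside RB036, RB037 and RB039 with MaR1. Proximal tubule markers in the hearts summed to 5.60 to 16.2 FPKM with MaR1, against 1.57 to 7.88 FPKM with vehicle, and their part in this difference was not tested. Fxyd5 was at 32.03, 14.1, 15.0, 21.2 and 12.8 FPKM in MaR1 hearts, against 16.6, 16.1, 10.5, 20.4 and 16.2 FPKM in vehicle hearts (0.19 ± 0.25). The heart of RB035 was far above the rest, and without it the difference was -0.01. Fxyd4 had 0 to 6 fragments per heart, at 0.107 FPKM with MaR1 and 0.0747 FPKM with vehicle on average (exact two-sided permutation p = 0.532, where 0.00794 is the smallest possible).

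The response to MaR1 was then compared between the organs, as the kidney difference minus the heart difference. No member and none of 12984 genes passed (0%), with 714 (5.50%) at an unadjusted p under 0.05, and 586 with voom, which also called 0. The member estimates ran from -0.43 ± 0.27 for Fxyd2 to 0.56 ± 0.31 for Fxyd4, with 0.22 ± 0.13 for Atp1b1. The value of Fxyd4 restates its kidney difference, because with so few fragments in heart its heart response on this scale is held near 0. Adjusted p-values were 0.939 to 0.995, and all 7 intervals included 0.

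**Figure D3:**
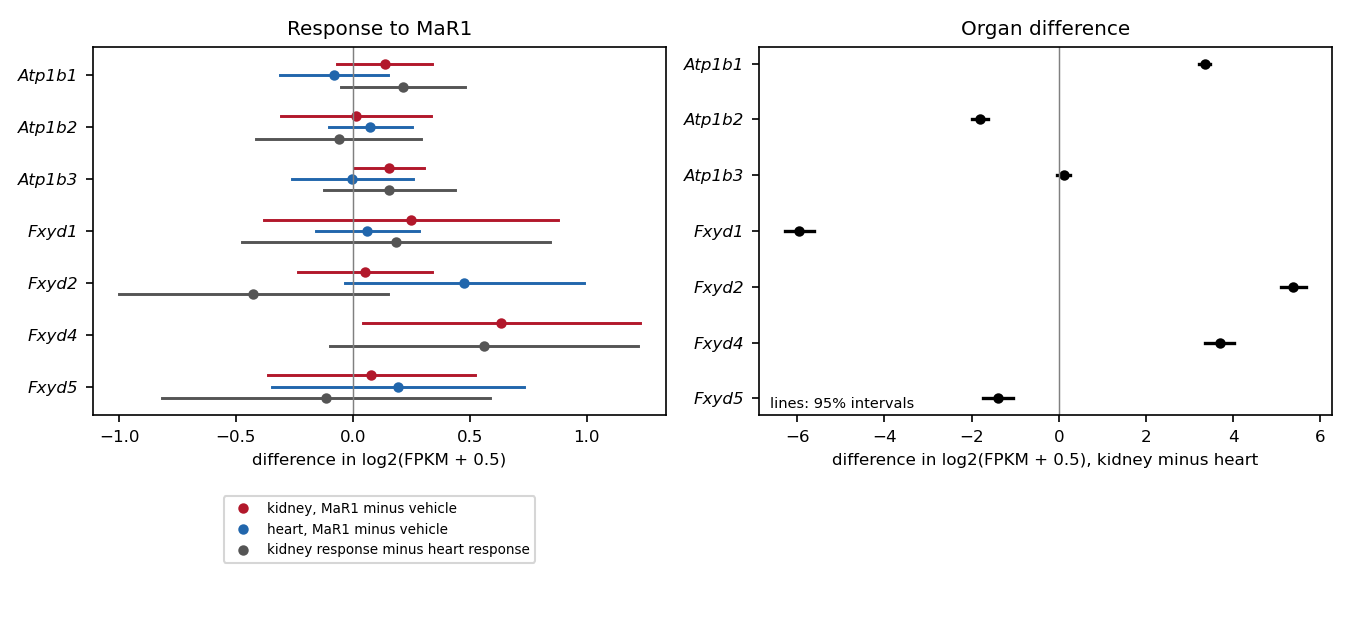
Left, MaR1 minus vehicle differences in log2(FPKM + 0.5) of the members in kidney (red) and heart (blue) and the kidney minus heart difference of the responses (grey), as points with 95% intervals from limma. Right, the kidney minus heart differences of the same genes on their own scale, where Fxyd1 lies at -5.95 and Fxyd2 at 5.38.

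The spread between animals of 1 group differed among the members. In kidney the mean coefficient of variation was 5.23% for Atp1b3, 5.83% for Atp1b1 and 11.3% for Fxyd2, beside a median of 11.8% over genes tested. It was higher for the less abundant Atp1b2 (19.5%), Fxyd5 (26.7%), Fxyd4 (30.8%) and Fxyd1 (39.5%). In heart it was lowest for Atp1b2 (8.96%) and Fxyd1 (9.16%) and highest for Fxyd2 (29.5%) and Fxyd5 (31.99%), beside a median of 13.0%, with Fxyd4 left out there for its few fragments.

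Other genes of sodium handling were taken as lists. Of the other pump subunit, FXYD and Nkain genes, 5 were tested in kidney, of which 4 had higher and 1 lower values with MaR1, with a median of 0.41 beside 0.0002 over all genes. None passed, and this median weighs the 5 genes alike, whatever their level and spread, so it does not describe the summed RNA of the family. Fxyd6, another FXYD gene, averaged 36.8 ± 10.2 FPKM in MaR1 kidneys and 27.3 ± 5.01 FPKM in vehicle kidneys (0.41 ± 0.19, adjusted p = 0.749). Of 17 tested regulators of the pump (kinases, phosphatases, anchors, nuclear receptors), 10 had higher and 7 lower values, with a median of 0.02 and none called. Ppp1r1a, an inhibitor of protein phosphatase 1, averaged 74.5 ± 28.8 FPKM in MaR1 kidneys and 45.1 ± 13.9 FPKM in vehicle kidneys (0.68 ± 0.29, adjusted p = 0.721).

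Apical sodium entry genes of the nephron were split evenly, with 4 of 8 higher and 4 lower with MaR1, a median of 0.007 and none called. Scnn1a, a subunit of the epithelial sodium channel, averaged 15.9 ± 1.88 FPKM in MaR1 kidneys and 12.5 ± 1.11 FPKM in vehicle kidneys (0.34 ± 0.09, adjusted p = 0.588). Of 4 tested genes on the list of heart muscle sodium carriers, 1 had higher and 3 lower values in MaR1 kidneys. The higher was the cotransporter gene Slc12a2, at 6.80 ± 0.417 FPKM in MaR1 kidneys and 5.82 ± 0.330 FPKM in vehicle kidneys with no overlap (0.21 ± 0.06, adjusted p = 0.621).

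In heart, no gene of these lists passed. The medians were 0.05 over 7 pump family genes, -0.03 over 17 regulators and -0.10 over 6 heart sodium carriers, beside 0.01 over all genes. The gene of smallest p was Nkain4, which encodes a pump-interacting protein, in the pump family (-0.74 ± 0.46) and the mineralocorticoid receptor gene Nr3c2 among the regulators (-0.16 ± 0.08). Of the nephron list, Slc34a1 alone passed the filter on low values, at 2.09 ± 1.59 FPKM in MaR1 hearts and 0.947 ± 0.745 FPKM in vehicle hearts (0.83 ± 0.41). Between organs, all 8 nephron entry genes were higher in kidney (median 5.88), among them Slc34a1, the phosphate cotransporter of the proximal tubule (9.49 ± 0.23), and Slc12a1, the cotransporter of the thick ascending limb (7.33 ± 0.23). Of 18 regulators, 9 had higher and 9 lower values in kidney. Past an adjusted p of 0.05 were 8 higher and 5 lower ones, among the lower Cav1, a caveolar scaffold (-4.39 ± 0.16). Of 5 tested heart carriers, 1 was higher in kidney, the bicarbonate cotransporter gene Slc4a4 (5.48 ± 0.16), and 4 were lower. Of 6 pump family genes, 2 were higher and 4 lower in kidney. Apart from the regulators, every tested gene of these lists passed between organs, beside 84.6% of all genes tested. For Slc34a1, Slc4a4, Slc12a1 and Cav1, adjusted p-values of the organ difference ran from 1.07e-18 for Slc34a1 to 1.19e-15 for Cav1.

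Each member was last set beside other genes over the 10 libraries of the organ where its mean was higher (kidney for Atp1b3, whose organ difference did not pass). Group means were removed, and these likenesses are descriptions with no test. In kidney, the genes most like Fxyd4 among 12446 were the homeobox gene Hoxb6 (Pearson r = 0.99), Slc12a1 (r = 0.98) and the transcription factor gene Sim2 (r = 0.97). Slc12a1 was at 150, 128, 282, 211 and 49.1 FPKM in MaR1 kidneys, against 51.1, 90.6, 63.4, 60.4 and 106 FPKM in vehicle kidneys. The MaR1 kidneys ranked in the same order for both genes, RB037 highest and RB039 lowest. With the mean of the principal cell markers, Fxyd4 had r = -0.18 after removing group means. Without removing them, r was 0.32 (rho = 0.25, permutation p = 0.365 and 0.489), and 0.48 without RB037 and RB039. This list mean does not speak for each gene of the list. Its gene Aqp2 was at 180, 135, 242, 177 and 125 FPKM in MaR1 kidneys, highest in RB037 and lowest in RB039, as Fxyd4 was. In vehicle kidneys Aqp2 was at 112, 147, 91.2, 87.5 and 107 FPKM. Aqp2 is 1 gene picked from this list. Of the 5 tested genes of the list, 3 had higher and 2 lower mean log2 values with MaR1. The lower ones were Hsd11b2 (-0.21 ± 0.15) and Gata3 (-0.06 ± 0.11). The relation of Aqp2 alone to Fxyd4 was not tested. All these values share their libraries.

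**Figure D4:**
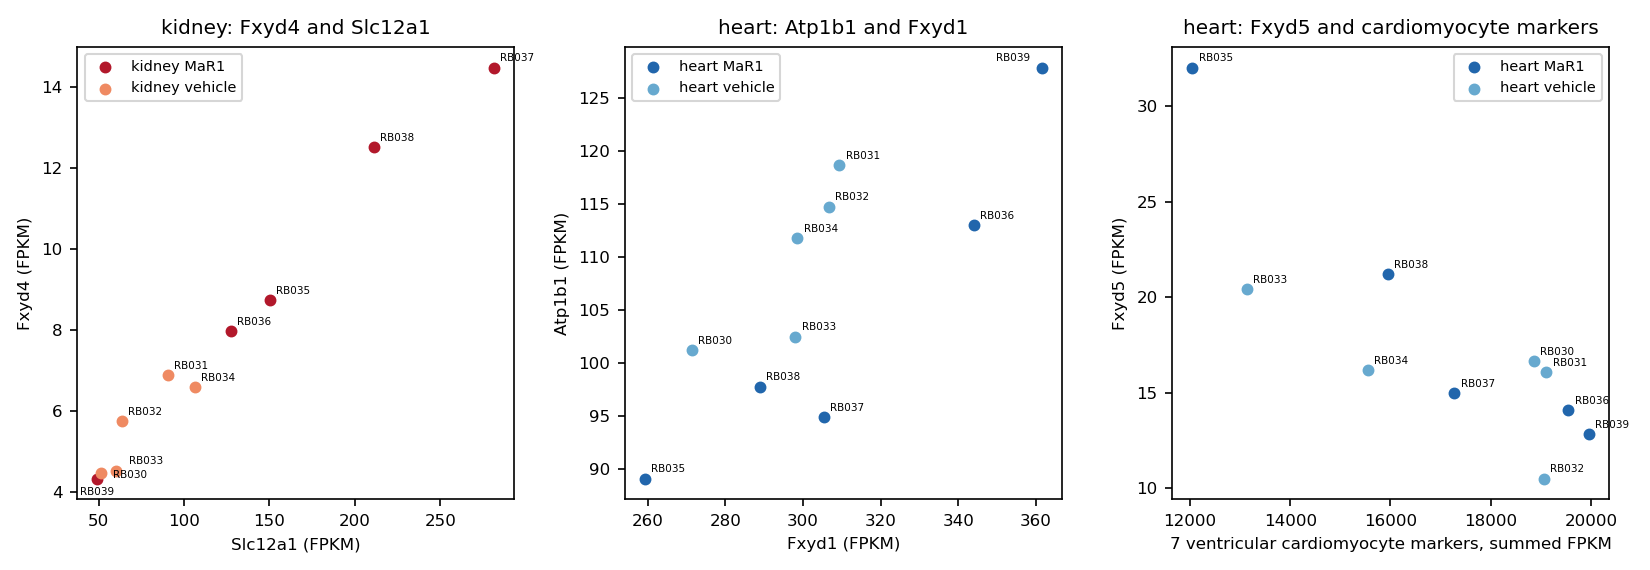
Each point is 1 animal. Left, Fxyd4 against Slc12a1 in kidney (FPKM), middle, Atp1b1 against Fxyd1 in heart (FPKM), and right, Fxyd5 (FPKM) against the summed FPKM of 7 ventricular cardiomyocyte markers in heart, where RB035 has the lowest marker sum and the highest Fxyd5.

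In heart, the main beta and FXYD genes of cardiac muscle, Atp1b1 and Fxyd1, varied together between animals (r = 0.92, n = 10, group means removed). Atp1b3 and Fxyd5 formed another pair (r = 0.86), and each ran against Fxyd1 (r = -0.71 and -0.80). These pairs are a selection from all pairs of members in heart. Members aside, 106 genes had r above 0.9 with Fxyd1 in heart, so such a value is not particular to Atp1b1. Strong pairs were not particular to heart either. In kidney, Atp1b2 and Fxyd5 had r = 0.86, and Fxyd2 and Fxyd5 had r = -0.79. Of the 10 hearts, that of RB035 was lowest for Atp1b1 and Fxyd1 and highest for Atp1b3 and Fxyd5. The correlations of the heart pairs were not computed without RB035, so how far they rest on that heart was not tested. Relations with marker lists were tested by permutation and computed without removing group means. Atp1b1 had r = 0.66 and rho = 0.68 with ventricular cardiomyocyte markers (permutation p = 0.0399 and 0.0345), and r = 0.52 without RB033 and RB035. With group means removed, r was 0.65. Over 12 such relations the lowest adjusted p was 0.240 for r and 0.207 for rho, so none passed. In kidney, Fxyd1 had r = 0.73 with smooth muscle markers (rho = 0.64, permutation p = 0.0336 and 0.0548), which was 0.43 without RB038 and RB039. The other 9 relations had r from -0.53 to 0.56. The highest of these was Fxyd1 with ventricular cardiomyocyte markers in heart (r = 0.56, rho = 0.68, permutation p = 0.0864 and 0.0343). It was 0.37 for r without RB033 and RB035.

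The genes most like the other members were mixed in kind. For Fxyd2 in kidney they were Ndufa11 (r = 0.98), Scand1 and Mrpl48 (0.97 each). For Atp1b1 in kidney they were Cnbd2, Atxn3 and Kdm7a (0.95 each), and for Atp1b3 in kidney Apcdd1 (0.97), Prr3 (0.96) and Parp6 (0.91). In heart they were Trabd, Ppp1r13l and Rxrb for Fxyd1 (0.97 each), Tsku, Rcn2 and Aga for Fxyd5 (0.99, 0.99 and 0.98), and N4bp2, Abi2 and Relch for Atp1b2 (0.93, 0.89 and 0.85). The number of genes above r = 0.9 differed widely. In heart it was 346 for Fxyd5, 106 for Fxyd1 and 1 for Atp1b2. In kidney it was 136 for Fxyd2, 85 for Fxyd4, 15 for Atp1b1 and 3 for Atp1b3.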

How the data were processed

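Poly-A RNA sequencing gave 20 libraries, grouped by organ and treatment from the labels, with the animal as replicate. Per the submitters' processing notes, reads went through fastp, HISAT2 2.0.5, StringTie 1.3.3b and featureCounts 1.5.0-p3. The build they mapped to was not given in the sources used here; gene positions are as deposited. The authors deposited FPKM. Multiplied by gene length, these values were whole fragments within 0.01, and the authors' library sizes match median-of-ratios scaling of the 20 libraries together, so organ differences are relative to it.

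log2(FPKM + 0.5), a scale that understates changes of low genes, was tested with limma 3.58.1 (R 4.3.3; variance trend, two-sided, Benjamini-Hochberg) on genes averaging at least 1 FPKM in the libraries fitted, at an adjusted p of 0.05. Each organ was fitted alone for MaR1; the organ comparisons used all 20 libraries. Kidney and heart with the same number come from 1 animal; same-animal correlations of deviations ran from -0.02 to 0.14. Marker relations used 100000 permutations. The steps were tested on simulated data. Members and lists were chosen with earlier results of these data known. Named list genes were, per list, the smallest p in each MaR1 comparison and the 2 with the highest absolute organ difference; some of the genes so picked are not reported here. Likeness took the 3 highest correlations. Alternatives were other pseudocounts, filters, scalings, models and left-out animals.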

Additional observations from a re-analysis of the deposited data

How the results depend on the processing

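Over the member differences, 515 alternative values kept direction and call, 25 reversed and 3 gained a call; the 3 are those of Atp1b3 between organs given above. With the animal as a replicate block, no member changed its call: the organ difference was 3.34 for Atp1b1 (adjusted p = 1.90e-13), and 10985 genes passed against 10983, and 0 against 0 for the response difference. Genes called numbered 7 for the kidney response with all 20 libraries in 1 model and 0 to 1 when single animals were left out (1 without RB035). For the response difference, 1 gene was called at pseudocount 0.1, as TPM and with no variance trend, and 0 to 3 without single animals (3 without RB035 or without RB039). A mean FPKM of at least 5 left 7292 organ calls, with fewer genes tested. Fxyd4 between organs and, in kidney alone, Atp1b2 and Fxyd1 then had no value.

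All reversals were of MaR1 differences that did not pass the test, and the cause was not tested. In kidney, Atp1b2 was -0.0118 with quantile normalization and -0.00201 with voom. In heart, Atp1b3 was 0.0212 as TPM, and Atp1b1 was 0.0437 without the 5 hearts with Myl7 above 100 FPKM. Without single animals, kidney values ran from -0.0784 to 0.0983 for Atp1b2, from -0.0548 to 0.109 for Fxyd2, from -0.0506 to 0.244 for Fxyd5 and from -0.0386 to 0.419 for Fxyd1. In heart they ran from -0.0844 to 0.0547 for Atp1b3 and from -0.0127 to 0.309 for Fxyd5. For the response difference they ran from -0.125 to 0.0364 for Atp1b2, from -0.255 to 0.0815 for Fxyd5 and from -0.0451 to 0.395 for Fxyd1. Depth limits Fxyd4 in heart, with 0 to 6 fragments a library.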
